A study of Homo sapiens with 18 samples.

Results

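RNA recovered with Flag-tagged SBP2 was measured beyond what the Flag precipitation recovers by itself, in cells given no selenite. The measure was a difference of differences on the log2 scale: the RIP-to-input difference of SBP2 lysates minus the RIP-to-input difference of control lysates. It used 12 of the 18 libraries, all those of cells without selenite: 3 SBP2 RIP, 3 SBP2 input, 3 control RIP and 3 control input libraries, assigned by their titles. The other 6 libraries came from SBP2 cells given 100 nM sodium selenite and gave no term to the contrast. They took part in the low-count filter, the scaling and the shared estimate of spread. They also entered the mean level that limited which IDs were named.

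SBP2 (SECIS binding protein 2) binds SECIS elements, stem-loops in the untranslated 3′ end of selenoprotein mRNAs. With a dedicated elongation factor and the selenocysteine tRNA it lets the ribosome read a UGA codon as selenocysteine instead of stop. RNA immunoprecipitation (RIP) pulls down a protein with the RNA attached to it, and the input is the RNA of the same lysate before the pull-down. Beads also hold RNA without the bait, and a vector control precipitated in the same way measures that background.

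All groups were HEK 293T, a human embryonic kidney line that is easily transfected. SBP2 cells received a Flag-SBP2 plasmid and control cells the Flag vector, so the control carries the tag and the transfection but not the protein. Both were transient transfections harvested after 48 h. Anti-Flag beads were incubated for 5 h with 4 mg of lysate protein and washed in 300 and then 500 mM KCl. Libraries were built from an equal mass of polyadenylated RNA, so they give the make-up of the recovered RNA and not how much RNA was recovered. The design text gives 3 biological replicates per group. Whether they were transfected on separate days is not given in the sources used here, and p-values measure the spread between these samples.

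Totals, in M (counts divided by 1e+06), were 25.1 to 28.3 in SBP2 RIP and 15.6 to 22.2 in SBP2 input libraries, against 24.6 to 29.9 in control RIP and 15.2 to 20.7 in control input libraries. The deposited table names genes by Ensembl ID alone and the reference tables used here hold no Ensembl IDs. Genes are therefore given as IDs, no gene name, role or sequence is attached to them, and neither SECISBP2 nor markers of the cell line were looked up.

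The strongest enrichment belonged to ENSG00000198832. Its level in CPM (counts scaled to a library total of 1e+06, with TMM factors) was 403, 473 and 427 in SBP2 RIP and 63.8, 53.3 and 55.9 in SBP2 input, against 5.69, 5.41 and 5.68 in control RIP and 58.2, 54.5 and 61.3 in control input. The inputs of both treatments lay in the same range (input difference log2 -0.01, SE 0.092), while every SBP2 RIP library was far above input and every control RIP library far below it. The log2 RIP-to-input ratios were 2.66, 3.15 and 2.93 in SBP2 lysates and -3.33, -3.31 and -3.41 in control lysates. The fitted enrichment was 6.29 on the log2 scale, or 78.1-fold (SE 0.143, edgeR adjusted p = 2.09e-20). Of this, log2 2.91 (SE 0.095) was the rise over input with SBP2 and log2 -3.37 (SE 0.107) the fall below input in the control.

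ENSG00000167468 was the second of the named IDs and followed the same pattern. It had 6483, 7342 and 7326 CPM in SBP2 RIP and 730.4, 619 and 674 CPM in SBP2 input, against 157, 157 and 143 CPM in control RIP and 837, 806 and 881 CPM in control input. SBP2 RIP and control RIP did not overlap with each other or with either input. Its ratios were 3.15, 3.57 and 3.44 in SBP2 lysates and -2.41, -2.36 and -2.62 in control lysates. The enrichment was log2 5.85, or 57.6-fold (SE 0.139, edgeR adjusted p = 2.97e-20). Its input was lower with SBP2 (log2 -0.32, SE 0.092, edgeR adjusted p = 0.0487), and SBP2 RIP against control RIP without inputs gave log2 5.53 (edgeR adjusted p = 5e-22). It ranked number 3 of 17678 IDs by enrichment. The ID between these 2 lay under the abundance limit for naming, a mean log2 CPM of 1 over all 18 libraries.

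The most depleted IDs above that limit were rare and changed far less. ENSG00000271971 had 1.73, 2.21 and 2.13 CPM in SBP2 RIP and 1.76, 2.14 and 1.98 CPM in SBP2 input, against 4.21, 4.24 and 4.40 CPM in control RIP and 0.713, 1.22 and 0.853 CPM in control input. Its SBP2 RIP stood level with input, whereas control RIP was above input in all 3 lysates. The enrichment was log2 -2.14 (SE 0.308, edgeR adjusted p = 4.12e-06). The input itself was higher with SBP2 (log2 1.06, SE 0.25, edgeR adjusted p = 0.0176), and the 6 input values did not overlap between treatments. Without inputs the fall between the RIPs was log2 -1.08 (edgeR adjusted p = 1.55e-05). Its libraries held between 10 and 145 counts.

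ENSG00000259820 had 1.57, 0.972 and 1.24 CPM in SBP2 RIP and 3.66, 3.10 and 2.54 CPM in SBP2 input, against 4.78, 2.67 and 3.37 CPM in control RIP and 2.85, 1.94 and 1.36 CPM in control input. The RIP levels did not overlap between treatments. Its ratios were -1.17, -1.58 and -0.98 in SBP2 lysates and 0.73, 0.44 and 1.26 in control lysates, opposite in sign in every lysate. The enrichment was log2 -2.14 (SE 0.419, edgeR adjusted p = 0.000203), with inputs that did not pass (log2 0.62, edgeR adjusted p = 0.268).

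**Figure D1:**
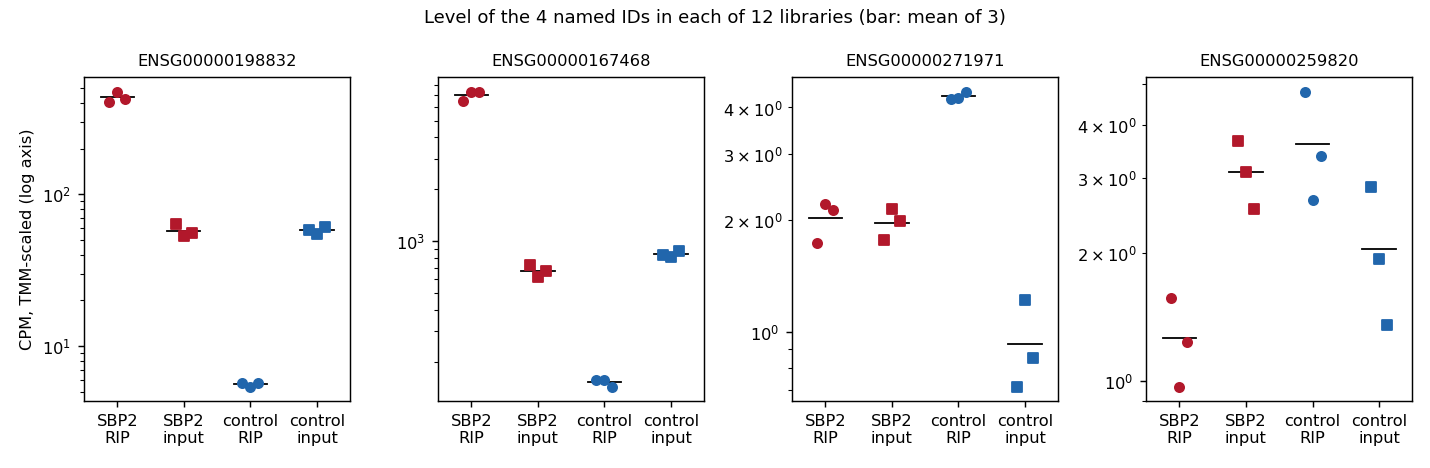
CPM on a log axis of the 4 named IDs in SBP2 RIP, SBP2 input, control RIP and control input libraries; each point is 1 library and each bar the mean of 3. For ENSG00000198832 and ENSG00000167468 SBP2 RIP lies above and control RIP below the inputs, while ENSG00000271971 is highest in control RIP. For ENSG00000259820 the mean is highest in control RIP, with single libraries that overlap SBP2 input.

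Across all 17678 IDs tested, 3844 (21.7%) were enriched and 3201 (18.1%) depleted with SBP2 relative to the control, at an edgeR adjusted p under 0.05. At 2-fold or more these were 1691 IDs (9.57%) and 592 IDs (3.35%). The median enrichment over all IDs was log2 0.02, with 5% of IDs below -0.997 and 5% above 1.55, and the median standard error was 0.19. The upper tail of enrichments was therefore longer than the lower tail. The balance between directions moved with the scaling: with library size alone 40.8% of the calls were enriched, against 54.6% with TMM factors, and the median of all IDs was log2 -0.13. At 2-fold or more, library size alone left 1354 enriched and 1058 depleted IDs.

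The asymmetry grew with the size of the change. At 4-fold or more (log2 2), 434 IDs were enriched and 31 depleted, and 296 and 2 of these reached a mean log2 CPM of 1. The 2 depleted IDs were the pair named above. That mean runs over all 18 libraries, SBP2 RIP with and without selenite included, so high levels in SBP2 RIP raise it. Enriched and depleted IDs were thus not held to an equal input level. At 8-fold or more (log2 3) there were 94 enriched and 4 depleted IDs, and at 16-fold (log2 4) 20 and 1. At log2 5 only enriched IDs remained, 7 of them, and 2 reached log2 6. The depleted IDs at 8-fold or more all lay under a mean log2 CPM of 1.

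Calls and separation of the lysates were compared for every ID. Both come from the same libraries, so a high share of separated IDs among the called ones is not independent support. In 3749 of the 3844 enriched IDs (97.5%) all 3 SBP2 ratios lay above all 3 control ratios, and in 3081 of the 3201 depleted IDs (96.3%) all 3 lay below. Over all tested IDs the SBP2 ratios were above in 27.3% and below in 23.8%. Among the 10633 IDs that were not called, 10.2% were above and 10.6% below. Across IDs, which are not independent replicates, ratios of different lysates correlated at r = 0.839 to 0.864 among SBP2 lysates and 0.870 to 0.896 among control lysates. The median standard deviation of an ID's ratio over 3 lysates was 0.16 with SBP2 and 0.22 in the control.

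Both sides of the difference contributed to the enriched IDs. Of the 3844, 1763 (45.9%) were above input in SBP2 RIP, where 30.3% of all IDs were higher and 31.7% lower than input. In control RIP 2842 of them (73.9%) were below input, where 39.8% of all IDs were lower and 31.5% higher. The median ratio of the enriched IDs was log2 0.21 in SBP2 and -0.84 in control lysates. These counts describe IDs chosen on the same contrast and carry no test.

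The makeup shifted as the enrichment became stronger. A higher limit on the contrast itself selects for higher SBP2 and lower control ratios, so the choice of IDs favours this shift. Of the 1691 IDs enriched 2-fold or more, 985 (58.2%) were above input with SBP2, and of the 94 enriched 8-fold or more, 77 (81.9%). Of those 94, 90 (95.7%) were below input in the control and none was above it. Their median ratio was 1.69, 1.65 and 1.59 in the 3 SBP2 lysates, against -1.89, -1.59 and -1.73 in the 3 control lysates. A further 1150 enriched IDs (29.9%) were below input in both precipitations and only less so with SBP2, and 370 (9.63%) were above input in both. Over all IDs 31.7% were below input in SBP2 RIP and 39.8% in control RIP. The share of all IDs on the same side in both was not counted, so neither pattern is shown to be particular to enriched IDs.

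The depleted IDs were for the most part RNAs that the vector control had recovered above input. Of the 3201, 2705 (84.5%) were above input in control RIP, against 31.5% of all IDs. In SBP2 RIP, where 30.3% of all IDs were above input, 1496 of these were also above it. Thus 46.7% of the depleted IDs were above input in both. Another 1087 (34.0%) passed above input in the control and did not differ from input with SBP2 by edgeR's test. A switch from above input in the control to below it with SBP2 was seen in 122 (3.81%). Depleted IDs had a median ratio of log2 0.23 in SBP2 and 0.96 in control lysates. In most of the depleted IDs SBP2 RIP was thus at or above its input and control RIP further above it. These IDs were chosen on the same contrast, which favours a high control ratio, and their counts carry no test. The joint shares over all IDs were not counted.

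**Figure D2:**
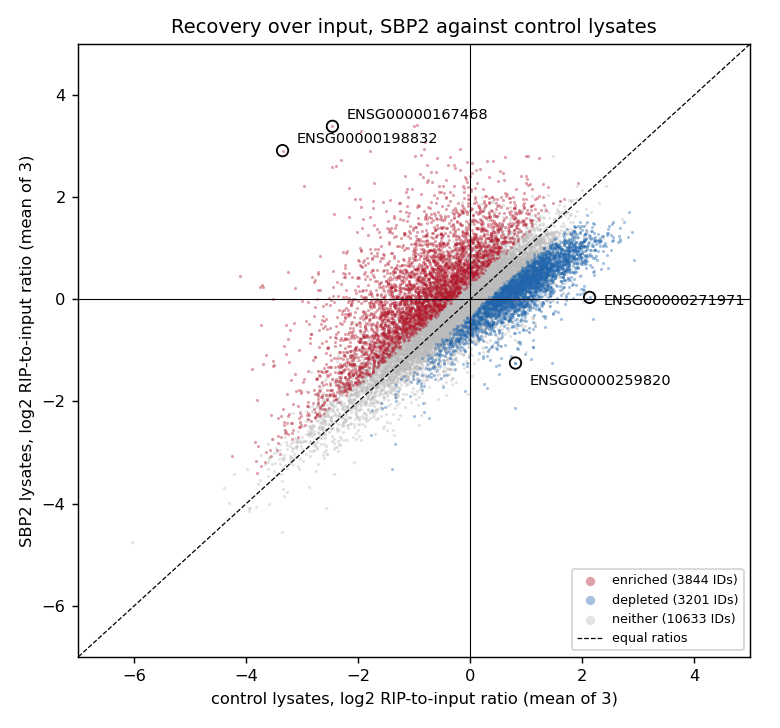
Mean log2 RIP-to-input ratio of each of 17678 IDs in SBP2 lysates (vertical axis) against control lysates (horizontal axis), with 3 lysates per treatment; red and blue points are enriched and depleted IDs at an edgeR adjusted p under 0.05, grey points are not called, and the dashed line marks equal ratios. Some enriched IDs spread into the upper left quadrant: 788 (20.5%) were above input with SBP2 and below it in the control. More of them, 1150 (29.9%), were below input in both. The matching shares of all IDs were not counted. The depleted IDs lie mostly to the right of 0.

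Bead background was followed in the IDs that rose most over input in control RIP among those above the abundance limit. ENSG00000187240 had ratios of 1.31, 1.17 and 1.50 in SBP2 lysates against 2.93, 2.62 and 3.14 in control lysates, and ENSG00000078246 had 1.67, 1.69 and 1.76 in SBP2 lysates against 2.87, 2.75 and 2.91 in control lysates. Both were thus above input in every precipitation and higher without SBP2, and the lysates did not overlap. The enrichment was log2 -1.56 for ENSG00000187240 (SE 0.161, edgeR adjusted p = 2.21e-08). For ENSG00000078246 it was log2 -1.13 (SE 0.143, edgeR adjusted p = 6.09e-07). Both IDs were picked for high control ratios, which enter the enrichment with a minus sign. The choice itself thus favoured a negative enrichment. At the other end, ENSG00000274012 was, above that limit, the ID furthest below input in control RIP and in SBP2 RIP, with ratios of -4.80, -4.88 and -4.59 in SBP2 lysates and -6.03, -6.22 and -5.87 in control lysates. Its enrichment of log2 1.25 did not pass (SE 0.655, edgeR adjusted p = 0.137).

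The IDs above the limit that rose most over input in SBP2 RIP were not those with the strongest enrichment. ENSG00000183291 had ratios of 3.22, 3.31 and 3.72 in SBP2 lysates and -1.43, -0.70 and -0.70 in control lysates, an enrichment of log2 4.37 (SE 0.215, edgeR adjusted p = 2.33e-14) that ranked number 16. ENSG00000211450 had ratios of 2.93, 3.62 and 3.64 in SBP2 lysates and -1.22, -0.73 and -1.08 in control lysates, an enrichment of log2 4.41 (SE 0.175, edgeR adjusted p = 4.81e-16) that ranked number 14. Their rise over input with SBP2 was as large as that of ENSG00000167468 (fitted log2 3.40, 3.40 and 3.39). Their control ratios were nearer to 0. Both IDs were picked for high SBP2 ratios, which are part of the contrast, so the choice favoured a positive enrichment.

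The inputs themselves differed between treatments for some IDs. Over all tested IDs 1.3% were higher and 2.68% lower in SBP2 input than in control input by edgeR's test. Of the 3844 enriched IDs, 35 (0.911%) were higher and 156 (4.06%) lower, and of the 3201 depleted IDs 76 (2.37%) were higher and 71 (2.22%) lower. Of the 592 IDs depleted 2-fold or more, 34 (5.74%) were higher and 5 (0.845%) lower. An input that is lower with SBP2 raises the enrichment and one that is higher lowers it. The median input difference was log2 -0.06 in enriched IDs, 0.03 in depleted IDs and 0.20 in those depleted 2-fold or more. Compared without inputs, 29.4% of all IDs were higher and 26.9% lower in SBP2 RIP than in control RIP. Of the enriched IDs 3612 (94.0%) were higher and of the depleted IDs 2981 (93.1%) were lower, a comparison that shares the RIP libraries with the contrast that chose them.

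The ID above the limit whose input rose most was ENSG00000187742, with 3100, 2806 and 2583 CPM in SBP2 input against 56.6, 51.6 and 57.2 CPM in control input. Its RIP-to-input ratios were 1.37, 1.40 and 1.43 in SBP2 lysates and 0.58, 0.56 and 0.51 in control lysates. An input difference of log2 5.68 went with an enrichment of log2 0.85 (SE 0.168, edgeR adjusted p = 0.000222). No ID was matched to the gene on the Flag-SBP2 plasmid, so whether these counts hold plasmid reads was not tested. Of the pair of IDs whose inputs fell most, ENSG00000143224 had 13.97, 11.1 and 16.4 CPM in SBP2 input against 31.2, 27.3 and 37.8 CPM in control input (log2 -1.21, edgeR adjusted p = 2.94e-05). Its enrichment was log2 2.10 (SE 0.205, edgeR adjusted p = 8.37e-09), against log2 0.89 without inputs (edgeR adjusted p = 7.38e-06), so the input difference was the larger part of it. The other, ENSG00000128965, had an input difference of log2 -1.56 (edgeR adjusted p = 0.0268) and an enrichment of log2 0.99 that did not pass (SE 0.549, edgeR adjusted p = 0.163).

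Lysates with selenite gave no value to the contrast, although their libraries took part in the low-count filter, the scaling and the shared spread. Their RIP was compared with their own inputs, which no other group shares, and over all IDs 30.7% were above and 31.6% below input. Of the 94 IDs enriched 8-fold or more without selenite, 64 (68.1%) were above input and 8 (8.51%) below it, with a median ratio of 1.23, 1.19 and 1.32. Of the 592 IDs depleted 2-fold or more, 318 (53.7%) were above input with selenite, with a median ratio of 0.38, 0.45 and 0.71. The 94 IDs had been chosen for high SBP2 and low control ratios, and the 592 for the opposite. Such a choice can favour extreme values in the lysates that set it, and by how much was not tested. The place of the selenite lysates between the SBP2 and control values thus shows neither an effect nor a lack of effect of selenite.

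**Figure D3:**
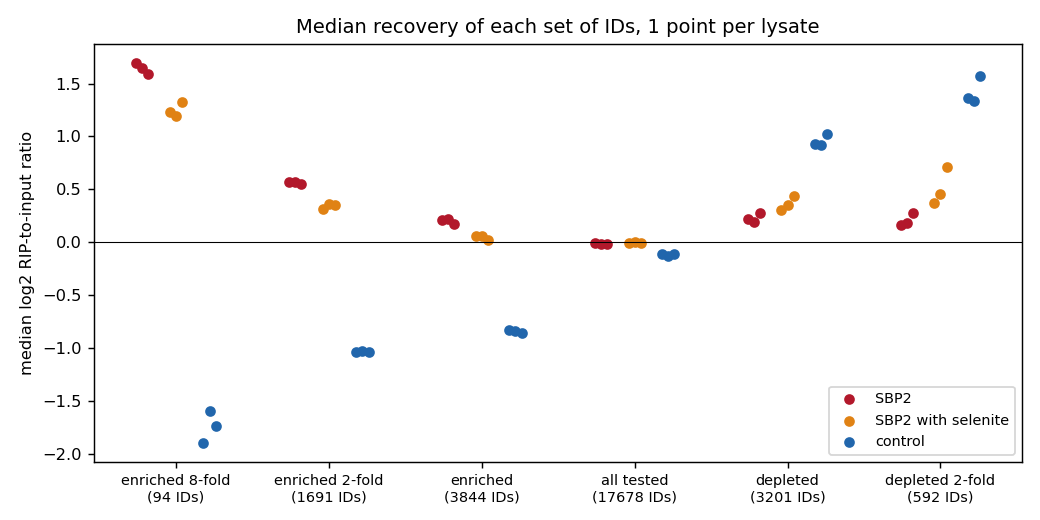
Median log2 RIP-to-input ratio (vertical axis) of each set of IDs, with 1 point per lysate for SBP2, SBP2 with selenite and control. Sets were chosen on the contrast of the SBP2 and control libraries without selenite, in a fit whose filter, scaling and spread also used those with selenite. Over the 94 IDs enriched 8-fold or more, SBP2 lysates lie at 1.59 to 1.69 and control lysates at -1.89 to -1.59.

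The share of all counts held by these IDs shows how far each precipitation departed from its input. The 1691 IDs enriched 2-fold or more held 23.6, 23.7 and 23.6% of the counts in the 3 SBP2 RIP libraries and 14.9 to 15.1% in SBP2 input, against 8.05, 7.93 and 7.77% in control RIP and 15.5, 15.3 and 15.5% in control input. The inputs of both treatments were close, SBP2 RIP stood above them and control RIP below. The 94 IDs enriched 8-fold or more held 3.19 ± 0.12% of counts in SBP2 RIP and 0.786 ± 0.034% in SBP2 input, against 0.225 ± 0.009% in control RIP and 0.796 ± 0.053% in control input (SD, n = 3 each). The strongest IDs were thus a small part of the RNA sequenced after SBP2 precipitation. The 3201 depleted IDs held 21.4 ± 0.35% in SBP2 RIP and 18.2 ± 0.30% in SBP2 input, against 38.2 ± 0.42% in control RIP and 18.2 ± 0.46% in control input (SD, n = 3 each). Their share in control RIP was the largest departure from input among the 5 sets plotted, in percentage points. All sets were chosen on these libraries, and the shares describe them.

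**Figure D4:**
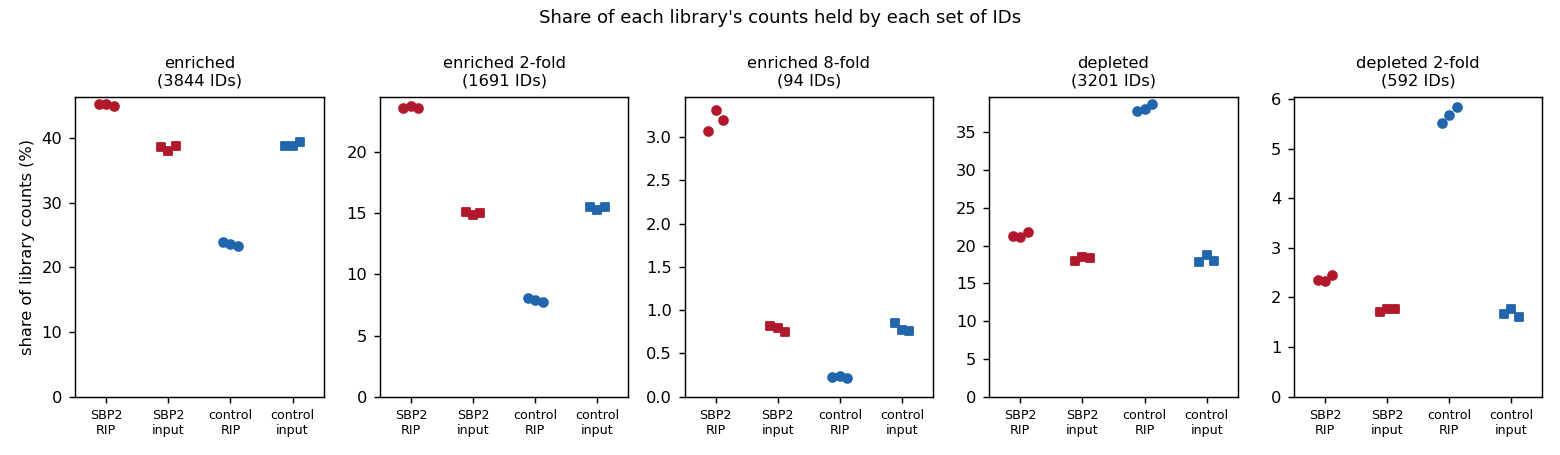
Percent of each library's counts (vertical axes, each starting at 0) held by 5 sets of IDs in SBP2 RIP, SBP2 input, control RIP and control input; each point is 1 library. Depleted IDs hold 37.9 to 38.7% of control RIP counts and 21.2 to 21.8% of SBP2 RIP counts.

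Enriched IDs were found at every level in the inputs, and the share enriched 2-fold or more was highest in the most abundant bin. Levels here are CPM in the 6 inputs, which are not corrected for transcript length. Of the 2285 IDs at 100 CPM or more, 351 (15.4%) were enriched and 35 (1.53%) depleted 2-fold or more. Of the 3558 IDs from 10 to 30 CPM, 294 (8.26%) were enriched and 144 (4.05%) depleted. Over the bins from 1 to 100 CPM the enriched share ran from 8.26 to 9.93% without a steady rise, and the depleted share from 2.56 to 4.62%. Of the 2930 IDs under 1 CPM, 193 (6.59%) were enriched and 91 (3.11%) depleted. The precision differed between these bins: the median standard error was log2 0.13 at 100 CPM or more, 0.17 from 10 to 30 CPM and 0.65 under 1 CPM, so a 2-fold change of a rare ID was often not detectable at this depth. Of the 94 IDs enriched 8-fold or more, 25 lay under 1 CPM and 20 at 100 CPM or more. The median enrichment was log2 0.19 at 100 CPM or more and -0.08 from 10 to 30 CPM.

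**Figure D5:**
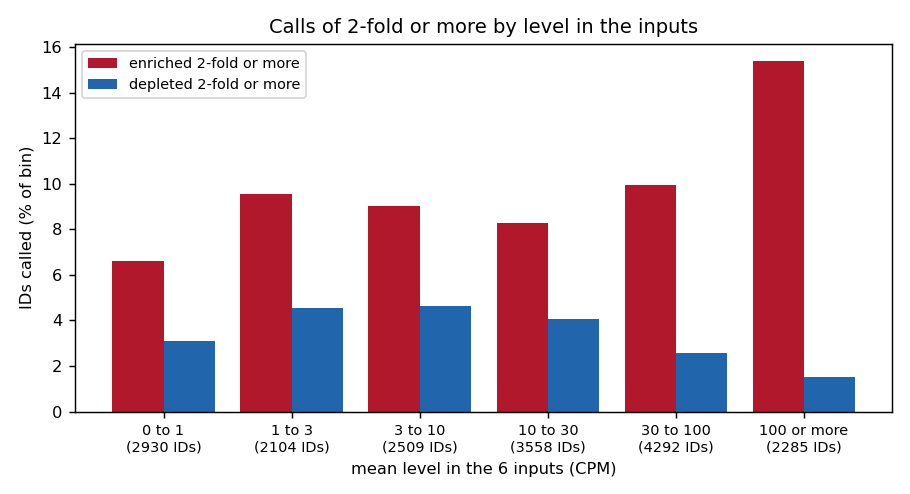
Percent of IDs enriched (red) or depleted (blue) 2-fold or more, at an edgeR adjusted p under 0.05, in bins of mean CPM over the 3 SBP2 and 3 control inputs. The enriched share is 15.4% in the highest bin and 6.59% in the lowest, and the depleted share is 1.53% and 3.11%.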

How the data were processed

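RIP-seq counts were analysed for 12 libraries in 4 groups of 3, assigned by title, within a model over all 18 libraries. The authors deposited raw whole-number counts per Ensembl ID, 1 column per library. The submitters' processing notes name Trim Galore 0.6.6, STAR 2.7.6a and featureCounts 2.0.1 with GRCh38 (hg38). The sources used here do not give the annotation, the strand setting or the treatment of multiply mapped reads. Reads of pseudogenes, paralogs, antisense or overlapping genes may thus be counted under one another.

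Of 58676 deposited IDs, 17678 passed edgeR's filterByExpr (minimum count 10, minimum total 15), and they held at least 99.9% of each library's counts. TMM factors scaled the counts, which were tested with edgeR 4.0.16 (R 4.3.3), two-sided quasi-likelihood tests of contrasts in a group-means model, with Benjamini-Hochberg adjustment over all tested IDs and a threshold of 0.05. Standard errors are the log2 change over the root of the F statistic. The ratio of a lysate is log2 CPM (counts per 1000000) of RIP minus that of input, after a prior count of 2 was added. "Above input" and "below input" are edgeR calls of RIP against input. Pairs of replicate libraries had a chi-square of 5.07 to 29.3 per degree of freedom, above sampling noise, and none was taken as a copy. On simulated data with known changes over 17491 IDs, 67% of log2 1 and 88.9% of log2 2 changes were recovered. Enrichments and depletions were pooled in these shares, and 9 unchanged IDs were called. Only 100 tested IDs were changed by log2 1 and 99 by log2 2, in both directions. With so few changed IDs the simulation cannot show how the calls depend on the scaling.

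Named IDs were those with the largest change in each direction in a comparison, at most 2 each, with a passing adjusted p, a change of 2-fold, a mean log2 CPM of at least 1 and lysates (or libraries) that did not overlap. That mean was taken over all 18 libraries. None of the 59792 genes in the RefSeq table (GRCh38.p14) carried an Ensembl ID, so gene lists by symbol, protein lengths and cell markers were not used. The comparison, the rule and the lists were chosen with earlier results of these data known. The higher fold limits and the abundance bins were set after the data were seen. RIP and input with the same number share 1 lysate, per the labels' protocols, although their deviations from the group means correlated at only 0.018 to 0.19. Alternatives were other scalings, filters, sample sets and tests (DESeq2 1.42.0, limma 3.58.1), replicate blocks, RIP without inputs and leaving out each library.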

Additional observations from a re-analysis of the deposited data

Results flagged for a closer look

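The libraries with selenite add no value to the enrichment, and both strongly enriched IDs were above input in all 3 of these lysates. ENSG00000198832 had a mean log2 RIP-to-input ratio of 2.69 ± 0.065 in SBP2 lysates with selenite, against -3.35 ± 0.053 in control lysates (SD, n = 3 each). ENSG00000167468 had 3.20 ± 0.027 in SBP2 lysates with selenite, against -2.46 ± 0.14 in control lysates (SD, n = 3 each). The control values are those on which both IDs were chosen, so the distance from the control is not independent of that choice, and the difference between treatments was not tested here.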

How the results depend on the processing

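The 22 alternatives that use inputs kept the direction and the passing adjusted p of all 4 named IDs. The enrichment of ENSG00000198832 ran from 6.14 to 6.36 and that of ENSG00000167468 from 5.70 to 5.91 on the log2 scale, ENSG00000271971 from -2.38 to -2.01 and ENSG00000259820 from -2.42 to -1.89. The count of IDs depleted 2-fold or more moved by over 1.5 times, to 1058 with library size alone and likewise to 1058 without a low-count filter, against 592. Other counts stayed within 1.5 times, but the balance of directions did not: DESeq2 size factors gave 3310 enriched and 3889 depleted IDs, the DESeq2 test 3316 and 3900, library size alone 3007 and 4368, and no low-count filter 2917 and 4159. With the lysate as a replicate block the counts were 4026 and 3452, and with the replicate number across treatments as a block 4175 and 3628, and neither block changed the call of a named ID. Leaving out each of 12 libraries gave 3390 to 3812 enriched and 2836 to 3325 depleted IDs. Of the calls of 2-fold or more, 1107 enriched (65.5%) and 247 depleted IDs (41.7%) were called at that size under the main and all 22 alternatives, and 47 of the 94 at 8-fold. The cause of these shifts was not tested. No ID called in the main setting was called the other way under an alternative, except 3 when RIPs were compared without inputs. Depth limits IDs under 1 CPM most.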
